A study of Homo sapiens with 5 samples.

Results

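The genes described here are 10 genes whose transcription rises when the kinase ERK is active: the phosphatase genes DUSP4, DUSP5 and DUSP6, the Sprouty genes SPRY1, SPRY2 and SPRY4, the Spred genes SPRED1 and SPRED2, and the transcription factor genes ETV4 and ETV5. They were chosen by gene symbol as negative feedback and transcription factor genes of the ERK pathway, and all 10 had a row among the 13822 genes of the expression table. RH4 is an established human cell line of alveolar rhabdomyosarcoma, a soft tissue tumour with features of skeletal muscle. Of the 5 libraries, 3 came from cells given the control siRNA (si-SCR) and 2 from cells given an siRNA directed against circVAMP3, a circular RNA made from the VAMP3 gene (si-circVAMP3). The libraries were made from polyadenylated RNA, and the comparison is that of si-circVAMP3 with si-SCR. Both groups received 30 nM siRNA with Dharmafect-1, had their medium changed at 24 h and were collected after a further 24 h, so untransfected cells are not part of the comparison. All values come from 1 cell line. The libraries of a group are biological replicates according to the study's methods.

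ERK is the last kinase of a cascade that runs from growth factor receptors through RAS, RAF and MEK. Active ERK induces genes that restrain it: DUSP phosphatases remove the activating phosphates from ERK, while Sprouty and Spred proteins act upstream, on RAS and RAF activation. ETV4 and ETV5 are ETS transcription factors of the PEA3 group, which are repressed by the protein CIC when ERK signalling is low. RNA levels of such genes are widely used as a readout of ERK pathway activity, although phosphorylated ERK itself was not analysed here.

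The siRNA is shown because it defines the treated group. Its sequence joins 8 bases at the end of exon 4 of VAMP3 to 11 bases at the start of exon 3, printed in capitals, and its last 2 bases did not continue the match.
si-circVAMP3: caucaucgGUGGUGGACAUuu
On GRCh38, exon 4 lies at chr1:7778118-7778169 and exon 3 at chr1:7777160-7777318, on the plus strand, and together they span 211 bases. The joined exons were present in 2 of the 3 annotated VAMP3 transcripts, and the 19 matched bases were found unbroken in 0 of the 3. Values are per gene, and the circular RNA itself was not analysed here. The VAMP3 gene (ENSG00000049245), whose row counts reads of the gene as a whole, was at 36.4, 35.4 and 37.4 FPKM in the si-SCR libraries and at 29.4 and 30.2 FPKM in the si-circVAMP3 libraries. FPKM are fragments counted per gene, scaled to transcript length and library size, a unit that allows levels of different genes to be compared. VAMP3 was lower in both treated libraries, by 0.29 on the log2 scale (limma adjusted p = 0.00496), and this call was lost without si-circVAMP3 replicate 1 (limma adjusted p = 0.0507). AKT1, the kinase gene on which the study centres, was at 49.5, 51.3 and 50.2 FPKM in si-SCR and at 21.8 and 21.3 FPKM in si-circVAMP3, a difference of -1.20 (limma adjusted p = 4.39e-05), and AKT2 was lower by a smaller amount (-0.25, limma adjusted p = 0.0197). The AKT2 call was lost without si-SCR replicate 2 and without either treated library (limma adjusted p = 0.0700, 0.125 and 0.0872).

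The markers of skeletal muscle and alveolar rhabdomyosarcoma were all present, 10 of 10 listed. Summed over the list they stood at 1030, 1013 and 866 FPKM in si-SCR and at 829 and 848 FPKM in si-circVAMP3, with the muscle filament gene DES the most abundant, at a mean of 269 FPKM. Of the 14 markers of other cell types, 12 had no row among the genes analysed here, including the epithelial EPCAM, the endothelial VWF and the blood cell PTPRC, and the remaining DCN and PECAM1 summed to 0.648 to 0.934 FPKM, with DCN the more abundant. Of the 10 muscle markers, 9 had a difference below 0 and 1 above, with a median of -0.18, and 8 were not called. The 2 called are 20% of the list, beside 30.4% of all 12245 genes tested, of which 5964 had a difference below 0 and whose median was 0.01. The marker above 0 was MYOD1, the master regulator of the lineage, at 115, 105 and 84.3 FPKM in si-SCR and 106 and 127 FPKM in si-circVAMP3 (log2 difference 0.20, limma adjusted p = 0.315). MYOG, a driver of muscle differentiation, fell in the treated cells (175, 179 and 149 against 101 and 96.6 FPKM, log2 difference -0.76, limma adjusted p = 0.00156), and FOXO1 fell by 0.26 on the log2 scale (limma adjusted p = 0.0241). The FOXO1 call was lost without si-SCR replicate 2 and without either treated library (limma adjusted p = 0.0818, 0.154 and 0.0801). Whether the lower MYOG and FOXO1 play a part in the values of the ERK output genes was not tested. In these bulk libraries, fewer cells that express a gene and less of its RNA per cell cannot be told apart.

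The depth of each library was read from the FPKM values, which gave whole numbers of reads in all 5 libraries for 69.05% of genes with gene lengths from the annotation, and for 99.64% when lengths were also inferred from ratios between libraries. The reads recovered in this way summed to 29432237, 27883614 and 27814192 over the genes of the table in si-SCR replicates 1 to 3 and to 20744407 and 32113770 in si-circVAMP3 replicates 1 and 2, so the shallowest and the deepest libraries were both in the treated group. Among the ERK output genes, DUSP5 rested on 40 to 67 reads per library, while each of the other 9 had at least 491 reads in every library.

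In si-SCR cells the 10 genes spanned a wide range of levels. DUSP6 and ETV5 were the most abundant, at 44.2 ± 0.653 and 40.2 ± 2.51 FPKM (mean ± SD, n = 3), above 93.4% and 92.6% of the genes of the table. ETV4 (26.4 ± 1.83 FPKM) and SPRY2 (25.7 ± 0.601 FPKM) followed, and their ranges over the control libraries overlapped. SPRY4 (12.5 ± 0.813 FPKM), SPRED1 (10.8 ± 0.728 FPKM) and SPRED2 (8.48 ± 0.221 FPKM) came next, each range apart from the next. DUSP4 (6.77 ± 0.538 FPKM) and SPRY1 (6.42 ± 0.355 FPKM) overlapped, and DUSP5 was far below the rest at 0.671 ± 0.0708 FPKM, above only 14.6% of the genes. Each of the 4 families therefore had a member well expressed in RH4 cells.

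**Figure D1:**
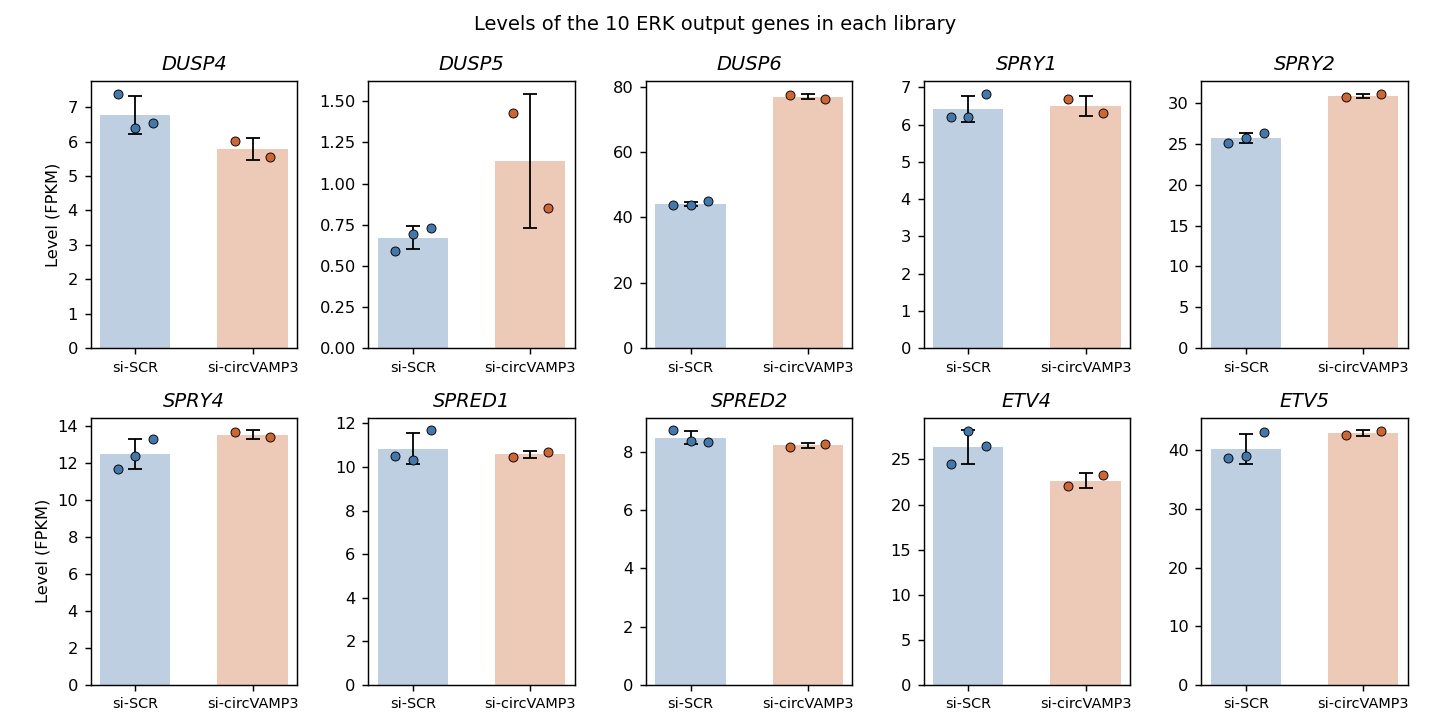
Level of each of the 10 ERK output genes in FPKM (vertical axes, each from 0) in the 3 si-SCR (blue) and 2 si-circVAMP3 libraries (orange). Bars are group means, error bars 1 SD and points libraries. DUSP6 stands at 43.7 to 44.9 FPKM in si-SCR and at 76.4 and 77.6 FPKM in si-circVAMP3, while SPRY1, SPRED1 and ETV5 overlap between the groups.

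Between the groups, 3 of the 10 genes passed the test: DUSP6 and SPRY2 were higher and ETV4 was lower in si-circVAMP3. The test was limma on log2(FPKM + 0.5), with p-values adjusted by the Benjamini-Hochberg method over the 12245 genes with a mean of at least 0.5 FPKM, all 10 ERK output genes among them, and a gene was called at an adjusted p under 0.05. Differences are therefore on the log2(FPKM + 0.5) scale, si-circVAMP3 minus si-SCR, which understates the change of genes with low values. Over all genes tested, 30.4% were called, 14.6% higher and 15.8% lower, so the share of 3 in 10 was near that of the whole table. Without si-circVAMP3 replicate 1 or 2 the share of all genes called was 10.7% or 10.3%, and without si-SCR replicate 2 it was 18.0%, and in each of these fits 2 of the 10 genes were called, so the background depends on the libraries used. With an absolute log2 difference over 0.58 asked for as well, 1 of the 10 genes, DUSP6, was called, beside 3.81% of all genes. The ranges of the groups did not overlap for 7 of the 10 genes, 4 higher and 3 lower, beside 58.5% of all genes. The median difference was 0.05 over the 10 genes and 0.01 over all genes tested, and neither the counts nor the medians set the 10 genes apart as a group.

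**Figure D2:**
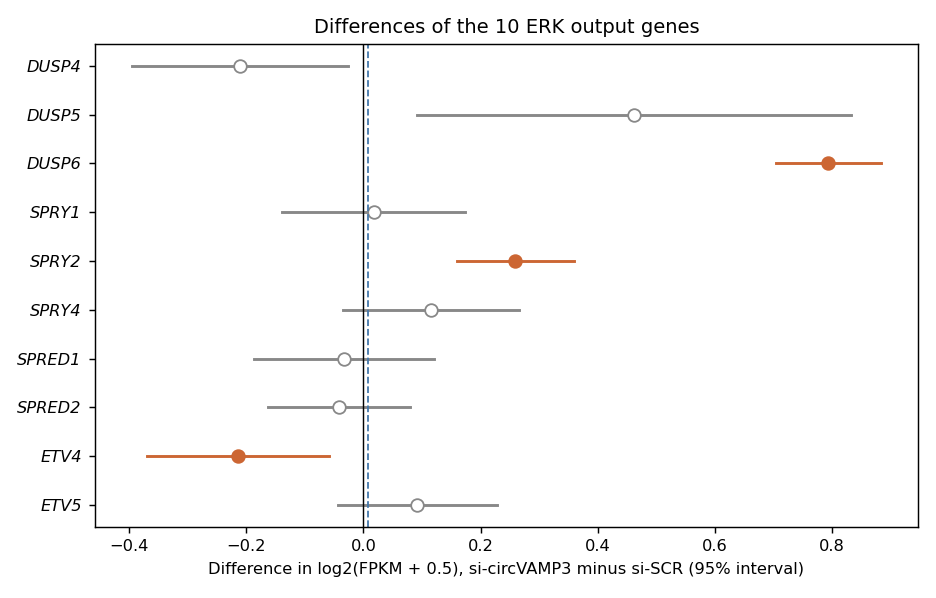
Difference in log2(FPKM + 0.5) between si-circVAMP3 and si-SCR (horizontal axis) for each of the 10 ERK output genes, with 95% confidence intervals from limma. Filled orange points passed the test and open grey points did not, and the dashed line is the median of all genes tested (0.01). DUSP6 lies at 0.79, outside the intervals of all other genes but DUSP5.

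DUSP6 encodes a cytoplasmic phosphatase that binds and dephosphorylates ERK with high selectivity. Its level was 43.8, 43.7 and 44.9 FPKM in the si-SCR libraries and 77.6 and 76.4 FPKM in the si-circVAMP3 libraries. The treated libraries lay far above the controls, and within each group the values differed little. The mean rose from 44.2 ± 0.653 (SD, n = 3) to 77.0 ± 0.867 FPKM (SD, n = 2), a ratio of 1.74, and the log2 difference was 0.79 (SE 0.038, 95% interval 0.70 to 0.88, limma adjusted p = 1.22e-04). Counting error was small beside this difference: the reads numbered 4511, 4219 and 4324 in si-SCR and 5549 and 8486 in si-circVAMP3. The exact Poisson 95% intervals reached at most 46.3 FPKM in the controls and fell no lower than 74.7 FPKM in the treated libraries, and such intervals cover counting error only. DUSP6 (ENSG00000139318) lies at chr12:89347235-89352501 on the minus strand of GRCh38.

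DUSP4 encodes a nuclear phosphatase that acts on ERK and also on JNK and p38. Its level was 7.39, 6.40 and 6.53 FPKM in si-SCR and 6.0 and 5.55 FPKM in si-circVAMP3. Both treated libraries were below all controls, but the controls spread widely, replicate 1 being the highest. The log2 difference was -0.21 (SE 0.077, 95% interval -0.40 to -0.03), and it did not pass the test (limma adjusted p = 0.0823). When limma-voom was instead run on the reads recovered from the FPKM values, an alternative chosen after seeing the data, DUSP4 was called at a log2 difference of -0.24 (limma-voom adjusted p = 0.0472, against 0.0472 to 0.349 over all alternatives).

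DUSP5 encodes a nuclear phosphatase specific for ERK, which it also holds in the nucleus. Its level was 0.592, 0.695 and 0.727 FPKM in si-SCR and 1.43 and 0.849 FPKM in si-circVAMP3. The treated libraries were both above the controls, but they differed from each other by more than replicate 2 differed from any control. The log2 difference of 0.46 (SE 0.16, 95% interval 0.09 to 0.83) missed the threshold (limma adjusted p = 0.0642). These levels stood for 40, 44 and 46 reads in si-SCR and 67 and 62 reads in si-circVAMP3. The exact Poisson 95% interval of si-circVAMP3 replicate 1 was 1.11 to 1.81 FPKM, above the intervals of the controls (0.423 to 0.806, 0.505 to 0.932 and 0.533 to 0.970 FPKM), while that of replicate 2 was 0.651 to 1.09 FPKM and overlapped all of them. Without si-circVAMP3 replicate 2 the gene was called (log2 difference 0.72, limma adjusted p = 0.0271), and without replicate 1 the difference fell to 0.21 (limma adjusted p = 0.305), so the size of the difference depends on which treated library is used. The range of adjusted p over all alternatives had these values as its ends.

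Sprouty proteins are induced by growth factor signalling and block the activation of RAS and RAF. SPRY2, the most abundant of the Sprouty genes here, was at 25.1, 25.8 and 26.3 FPKM in si-SCR and at 30.7 and 31.1 FPKM in si-circVAMP3. The groups did not overlap, and the gap between them was wider than the range within either. The mean rose from 25.7 ± 0.601 (SD, n = 3) to 30.9 ± 0.241 FPKM (SD, n = 2), by 20.1%, and the log2 difference was 0.26 (SE 0.042, 95% interval 0.16 to 0.36, limma adjusted p = 0.00602). SPRY2 lost its call in 2 of 16 alternatives, with the fold threshold and without si-circVAMP3 replicate 2 (the latter with a log2 difference of 0.25 and a limma adjusted p = 0.0569, the highest over all alternatives, the lowest being 0.00373 with limma-voom). The gene (ENSG00000136158) lies at chr13:80335976-80341126 on the minus strand.

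SPRY4, which also interferes with RAF activation, was at 11.7, 12.4 and 13.3 FPKM in si-SCR and at 13.7 and 13.4 FPKM in si-circVAMP3. The treated libraries were above the controls only narrowly, since si-SCR replicate 3 came close to them, and the log2 difference of 0.12 (95% interval -0.03 to 0.27) did not pass the test (limma adjusted p = 0.209). SPRY1, the least abundant of the Sprouty genes, was at 6.22, 6.21 and 6.83 FPKM in si-SCR and at 6.68 and 6.31 FPKM in si-circVAMP3. The treated values lay within the range of the controls. The log2 difference was 0.02 (95% interval -0.14 to 0.17, limma adjusted p = 0.863), so a difference as large as that of SPRY2 was outside the interval.

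Spred proteins carry a Sprouty-like domain, and SPRED1 recruits the RAS inactivator neurofibromin to the membrane. SPRED1 was at 10.5, 10.3 and 11.7 FPKM in si-SCR and at 10.4 and 10.7 FPKM in si-circVAMP3. The treated libraries fell within the range of the controls, whose replicate 3 was the highest of the 5. The log2 difference was -0.033 (95% interval -0.19 to 0.12, limma adjusted p = 0.735), and it turned to 0.020 without si-SCR replicate 3 (limma adjusted p = 0.784). SPRED2, its close relative, was at 8.73, 8.38 and 8.32 FPKM in si-SCR and at 8.16 and 8.28 FPKM in si-circVAMP3. Both treated values were below the controls, but the gap was smaller than the spread within either group. The log2 difference of -0.041 (95% interval -0.16 to 0.08) did not pass the test (limma adjusted p = 0.575).

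ETV4 and ETV5 encode closely related activators of the PEA3 group. ETV4 was at 24.5, 28.2 and 26.5 FPKM in si-SCR and at 22.0 and 23.2 FPKM in si-circVAMP3. Both treated libraries were below all controls, with the lowest control, replicate 1, close to the higher treated value. The mean fell from 26.4 ± 1.83 (SD, n = 3) to 22.6 ± 0.850 FPKM (SD, n = 2), and the log2 difference of -0.21 (SE 0.065, 95% interval -0.37 to -0.06) passed the threshold narrowly (limma adjusted p = 0.0484). This call was lost in 8 of 16 alternatives: with the fold threshold of 0.58, with no filter on low values (limma adjusted p = 0.0503), with no trend in the variance (0.0768), after scaling the libraries to the same median (0.0671), without si-SCR replicate 2 (0.126) or 3 (0.0642), and without si-circVAMP3 replicate 1 (0.240) or 2 (0.126). Over all alternatives the limma adjusted p of ETV4 ran from 0.0236 to 0.240, and the difference was below 0 in each.

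ETV5 was at 38.6, 39.0 and 43.1 FPKM in si-SCR and at 42.5 and 43.2 FPKM in si-circVAMP3. Replicate 3 of the controls was as high as the treated libraries, so the groups overlapped, and the log2 difference was 0.09 (95% interval -0.04 to 0.23, limma adjusted p = 0.267). Without si-SCR replicate 3 it was 0.14 and passed the test (limma adjusted p = 0.0328, against 0.0328 to 0.549 over all alternatives). The order of levels among the 10 genes was mostly the same in si-circVAMP3 cells as in controls, with DUSP6 first, ETV5 second and DUSP5 last. SPRY2 and ETV4, which overlapped in the controls, lay apart in the treated libraries, at 30.9 ± 0.241 and 22.6 ± 0.850 FPKM (SD, n = 2). DUSP4, which overlapped SPRY1 in the controls, lay below it in the treated libraries, at 5.77 ± 0.321 against 6.50 ± 0.266 FPKM (SD, n = 2).

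Ratios between members of the same family were then taken within each library, a measure that does not depend on library size. The 4 pairs were chosen with the values known, and the ratios are a description with no test. The log2 ratio of DUSP6 to DUSP4 was 2.57, 2.77 and 2.78 in si-SCR and 3.69 and 3.78 in si-circVAMP3, a difference in means of 1.03. The ratio of SPRY2 to SPRY1 was 2.01, 2.05 and 1.95 in si-SCR and 2.20 and 2.30 in si-circVAMP3, a difference of 0.25. Both ratios were higher in each treated library than in every control, the first by a much wider margin. The log2 ratio of ETV5 to ETV4 was 0.66, 0.47 and 0.70 in si-SCR and 0.95 and 0.90 in si-circVAMP3, again with no overlap, and the difference was 0.31. The ratio of SPRED1 to SPRED2 was 0.27, 0.30 and 0.49 in si-SCR and 0.36 and 0.37 in si-circVAMP3, and the groups overlapped. How often ratios of other gene pairs lie apart was not computed. Among single genes tested, 58.5% had ranges apart, and each ratio restates the levels of its genes given above.

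**Figure D3:**
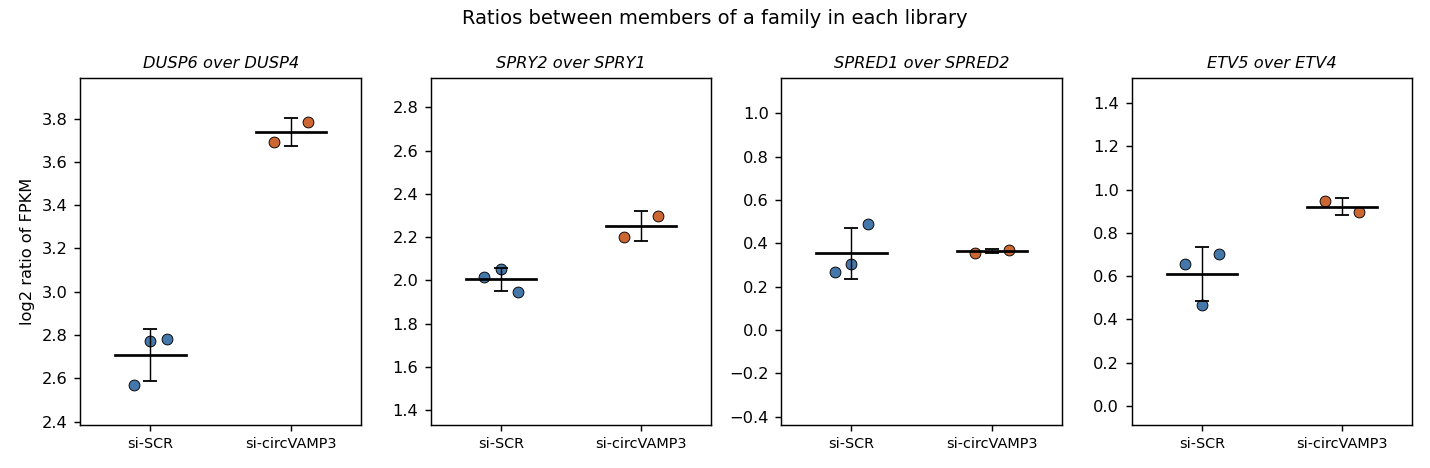
log2 ratio of FPKM between pairs of genes of the same family (vertical axes, all spanning the same number of log2 units) in the si-SCR (blue) and si-circVAMP3 libraries (orange). Points are libraries, horizontal bars are means and error bars 1 SD. The ratio of DUSP6 to DUSP4 moves from 2.57 to 2.78 in si-SCR to 3.69 and 3.78 in si-circVAMP3, while the ratio of SPRED1 to SPRED2 overlaps.

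Likeness of pattern was measured for DUSP6 as the root mean square distance between centred log2(FPKM + 0.5) values over the 5 libraries. The genes closest to it were DAZAP2 (distance 0.031), CLCF1 (0.035) and ATP6V0E1 (0.040). CLCF1, for example, was at 1.33, 1.33 and 1.46 FPKM in si-SCR and at 2.64 and 2.76 FPKM in si-circVAMP3. Of the other 9 ERK output genes, DUSP5 came closest, at rank 623 among the 12245 genes. SPRY2 ranked 1129, SPRY4 3366 and ETV5 3839, and DUSP4 and ETV4 were the furthest of the 9, at 9861 and 9893.

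Since DUSP6 had the largest difference of the 10 genes, the 250 bases before its start are printed from the RefSeq promoters (GRCh38.p14, chr12:89352502-89352751, minus strand). The capitals mark a form of the ETS factor motif, here on the opposite strand, at 57 to 62 bases before the start. It was searched only as CGGAAG on both strands, and shorter or other forms were not marked.
DUSP6: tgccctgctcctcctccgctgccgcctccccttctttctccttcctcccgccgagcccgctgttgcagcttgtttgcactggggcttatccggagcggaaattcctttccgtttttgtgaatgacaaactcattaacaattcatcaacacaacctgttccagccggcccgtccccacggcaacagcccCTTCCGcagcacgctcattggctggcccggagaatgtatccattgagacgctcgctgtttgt
Promoters were found for 6 of the 10 genes, DUSP6, SPRY1, SPRY2, SPRY4, SPRED1 and SPRED2, in 10 windows. The motif in this form was in 2 of these 10 windows, those of DUSP6 and of 1 start of SPRY1, and in 16.5% of all 35116 windows of the same length. The CArG box, the motif of serum response factor, was in 0 of the 10 windows and in 1.16% of all windows. A match is a description of the letters in a window and not a measured binding site.

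The other genes of the pathway were taken from lists. Beside 30.4% of all genes tested, the share called was 14.3% of the relatives of the 4 families, 58.3% of other genes induced by ERK activity, 30% of the cascade and of the adaptors, 44.4% of other brakes, 27.3% of the receptors and 40% of the kinases and promoter factors, and no set was tested against the rest. Of the relatives of the 4 families, 7 of 10 listed genes were tested and 1 was called: DUSP10, a phosphatase that prefers p38 and JNK, rose from 4.13 ± 0.447 (SD, n = 3) to 5.26 ± 0.410 FPKM (SD, n = 2), with a log2 difference of 0.32 (limma adjusted p = 0.0445). The DUSP10 call was lost in 8 of 16 alternatives, including those without si-SCR replicate 1 (limma adjusted p = 0.0969) or 3 (0.0680) and without si-circVAMP3 replicate 1 (0.242) or 2 (0.102). Among other genes induced by ERK activity, 12 of 16 were tested, of which 3 rose and 4 fell, a median of 0.03. The early response gene IER3 rose most, from 2.72, 3.17 and 2.52 FPKM in si-SCR to 8.39 and 10.2 FPKM (log2 difference 1.56, limma adjusted p = 4.19e-04), and FOSL1, an AP-1 factor, rose by 0.92 (0.00647) and the ephrin receptor gene EPHA4 by 0.47 (0.0115). In the opposite direction, the early response factor EGR1 fell by 0.53 (2.19, 2.10 and 1.71 against 1.22 and 1.23 FPKM, limma adjusted p = 0.0105), EPHA2 by 0.33 (0.0331), the chromatin protein HMGA2 by 0.29 (0.0217) and PHLDA1 by 0.23 (0.0390). MYC (0.07, limma adjusted p = 0.283) and the cyclin CCND1 (0.13, 0.134) did not pass, and FOS, at 0.277 to 0.423 FPKM, was too low to be tested. IER3 kept its call in every alternative, whereas the others lost theirs with single libraries left out. Without si-circVAMP3 replicate 1 these were EPHA4 (log2 difference 0.36), EGR1 (-0.53), HMGA2 (-0.25), EPHA2 (-0.31) and PHLDA1 (-0.13). Without si-circVAMP3 replicate 2 they were FOSL1 (log2 difference 0.81), EGR1 (-0.53), HMGA2 (-0.33) and EPHA2 (-0.35). The EGR1 call was thus lost in both fits with its difference about as large as in the main fit. EPHA2 lost its call without si-SCR replicate 1 (limma adjusted p = 0.0738) or 2 (0.0993), and HMGA2 without replicate 2 (0.0538). PHLDA1 lost its call without si-SCR replicate 1 (limma adjusted p = 0.0630), 2 (0.114) or 3 (0.0527).

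All 10 listed genes of the cascade from RAS to ERK were tested, and 3 passed. The MEK gene MAP2K1, whose product phosphorylates ERK, rose from 28.7, 30.4 and 30.2 FPKM to 47.0 and 46.3 FPKM (log2 difference 0.64, limma adjusted p = 3.66e-04), while HRAS fell by 0.53 (limma adjusted p = 0.00156). The ERK gene MAPK3, at 12.5 ± 0.394 (SD, n = 3) and 13.4 ± 0.539 FPKM (SD, n = 2), did not pass (limma adjusted p = 0.184). Of 10 adaptors, exchange factors and scaffolds tested, SHC1 (log2 difference 0.55, limma adjusted p = 0.00185) and GRB2 (0.19, 0.0134), which link receptors to RAS, rose, and the RAS exchange factor SOS2 fell (-0.28, 0.0176). Of 9 other brakes on RAS and ERK, the RAS inactivator RASA2 rose (0.78, limma adjusted p = 7.59e-04), and its relative RASA3 (-0.30, 0.00758), the ERK-binding PEA15 (-0.32, 0.0107) and the RAS degradation adaptor LZTR1 (-0.40, 0.0212) fell. Calls that were lost without si-circVAMP3 replicates 1 and 2 were those of GRB2 (limma adjusted p = 0.0708 and 0.10), SOS2 (0.105 and 0.0967) and LZTR1 (0.129 and 0.0836), that of RASA3 without replicate 1 (0.0677) and that of PEA15 without replicate 2 (0.0781). Without si-SCR replicate 2, SOS2 (limma adjusted p = 0.0688) and LZTR1 (0.0746) were not called, nor was LZTR1 without si-SCR replicate 1 (0.0549).

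Of 11 growth factor receptors tested, ERBB3 (log2 difference 0.38, limma adjusted p = 0.0129) and IGF1R (0.22, 0.0130) rose and FGFR1 fell (-0.40, 0.00507). FGFR4, the most abundant of the receptors, was at 251, 239 and 197 FPKM in si-SCR and at 183 and 197 FPKM in si-circVAMP3, and its difference of -0.26 was not called (limma adjusted p = 0.0988), though it was called without si-SCR replicate 3 (-0.37, 0.00354). Among 15 tested kinases that ERK activates and factors that act on promoters of ERK output genes, 4 rose and 2 fell. The ERK substrate kinase MKNK2 rose from 7.57 ± 0.990 (SD, n = 3) to 15.2 ± 0.397 FPKM (SD, n = 2; log2 difference 0.96, limma adjusted p = 0.00147), and serum response factor, SRF, fell from 29.8, 30.2 and 29.0 FPKM to 18.9 and 17.5 FPKM (-0.69, 4.19e-04). The repressor CIC did not pass (-0.10, limma adjusted p = 0.598), while its partners ATXN1 (0.31, 0.0349) and ATXN1L (0.18, 0.0425) and the ETS repressor ETV6 (0.29, 0.0294) rose and COP1, a ligase for ETV proteins, fell (-0.24, 0.0256). Without si-circVAMP3 replicates 1 and 2, calls were lost for ERBB3 (limma adjusted p = 0.0888 and 0.0790), IGF1R (0.0941 and 0.0766), ATXN1 (0.171 and 0.104), ATXN1L (0.203 and 0.143), ETV6 (0.130 and 0.139) and COP1 (0.158 and 0.0882), and for FGFR1 without replicate 2 (0.0511). Leaving out si-SCR replicate 1 ended the calls of ATXN1 (limma adjusted p = 0.0584), ATXN1L (0.0926), ETV6 (0.0724) and COP1 (0.0535), replicate 2 those of ERBB3 (0.0505), ATXN1 (0.104), ATXN1L (0.117) and ETV6 (0.0896), and replicate 3 that of ATXN1 (0.0617).

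**Figure D4:**
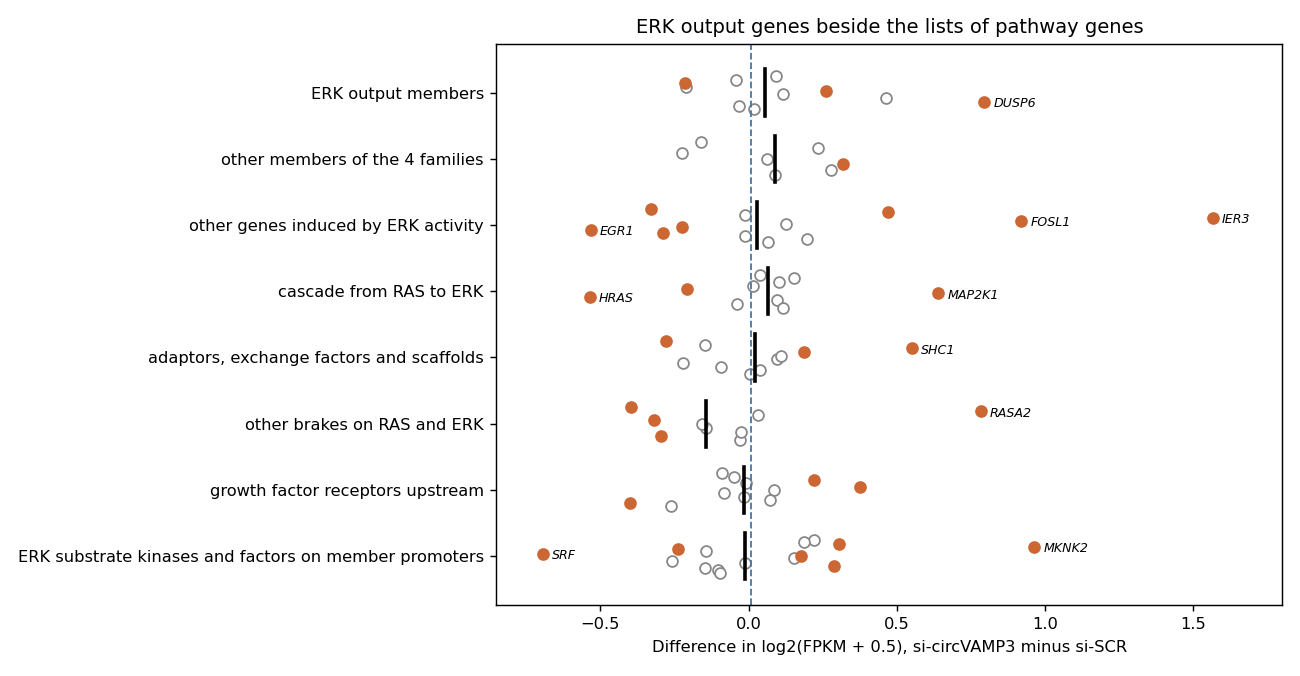
Difference in log2(FPKM + 0.5) between si-circVAMP3 and si-SCR (horizontal axis) for the tested genes of each list (rows). Filled orange points passed the test, open points did not, black bars are list medians and the dashed line is the median of all genes (0.01), and called genes past 0.5 in either direction are named. The 10 ERK output genes lie around a median of 0.05 with DUSP6 at 0.79, and of the 8 lists plotted only the other members of the 4 families holds no genes called in both directions.

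Of 10 genes of the innate response to transfected RNA, 5 had a row, 3 could be tested, and the smallest limma adjusted p was 0.0555, that of the sensor RIGI, with a log2 difference of 0.29. The group mean was higher in si-circVAMP3 for 4 of the 5, and for 3 of these the ranges did not overlap. The 13 protein-coding genes of the mitochondrial genome had a median difference of -0.13, and 1 of them (7.69%, beside 30.4% of all genes tested), MT-ATP8, fell (-0.20, limma adjusted p = 0.0273), a call lost without si-SCR replicate 1 (0.0717) or 2 (0.0638) and without si-circVAMP3 replicate 1 (0.202) or 2 (0.10). Their part in the differences of DUSP6, SPRY2 and ETV4 was not tested.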

How the data were processed

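Polyadenylated RNA of RH4 cells was measured in 5 libraries made with the TruSeq Stranded mRNA kit. The authors trimmed reads with Trimmomatic, aligned them with STAR 2.5.2b to GRCh38, counted them per gene and strand with HTSeq, removed genes with few reads and deposited FPKM values computed with edgeR. Base calls came from bcl2fastq 2.20.0.422, per the submitters' processing notes.

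From the FPKM values, genes with a mean of at least 0.5 FPKM over the 5 libraries were tested (12245 of 13822, 1577 not tested) on log2(FPKM + 0.5) with limma 3.58.1 in R 4.3.3 (eBayes with a trend, no covariate, 3 si-SCR against 2 si-circVAMP3 libraries), and p-values were adjusted over all genes tested by the Benjamini-Hochberg method. The fit had 3 residual and 3.69 prior degrees of freedom. The scripts were tested on simulated data. Symbols were matched for 13783 genes. Since the unit is FPKM, a count test was not the main test.

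Read numbers were recovered from the ratios of FPKM values between libraries: 99.64% of genes gave whole reads in all 5 libraries, within 0.02 reads, and 69.05% did so with the length in the annotation itself. Between 47.7% and 48.4% of a library's read numbers were odd. The recovered reads served for depth, for exact Poisson intervals at 95% and for 1 alternative. Positions come from GENCODE on GRCh38 and promoters from RefSeq. Python 3.11.15, pandas 2.3.3, scipy 1.17.1, numpy 2.4.6 and matplotlib 3.10.9 were used.

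The ERK output genes and the lists were chosen with earlier results of these data known. Named were all 10 genes, of each list every gene that passed (at most the 6 with the smallest adjusted p), MAPK3, EGR1, FOS, MYC, CCND1, PHLDA1, CIC, FGFR4, VAMP3 and AKT1 in any case, and the 3 genes most like DUSP6. RIGI, EPCAM, VWF, PTPRC, DES, MYOD1, DCN and PECAM1 were named as markers or after their values were seen. Some genes that this rule takes are not reported here. Alternatives were another pseudocount (0.1 or 1 FPKM), no filter or a mean of 1 FPKM, limma without a trend or robust, scaling to the same median, quantile normalization, a fold threshold of 0.58 on the log2 scale, the replicate number as a block, each library left out in turn and, added after seeing the data, limma-voom on the recovered reads.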

Additional observations from a re-analysis of the deposited data

How the results depend on the processing

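Of 16 alternatives, DUSP6 kept its call in each, with log2 differences of 0.75 to 0.82 and adjusted p of 6.60e-06 (limma-voom on the recovered reads) to 0.00529 (limma without si-circVAMP3 replicate 1). The number of the 10 ERK output genes called was 3, fell to 1 with the fold threshold, and ranged from 2 to 3 with a library left out and up to 4 over all alternatives. Of all genes, 3723 were called, 466 with the fold threshold, and 1260 to 4000 with a library left out. The number was 1260 and 1305 without si-circVAMP3 replicate 2 or 1, where the lone treated library is assumed to vary like the controls. Without si-SCR replicates 1, 2 and 3 it was 3068, 2199 and 4000, so leaving out a library did not always lower the number called. The difference changed sign only for genes that were not called: with a library left out SPRY1 ran from -0.022 to 0.059, SPRED1 from -0.064 to 0.020 and CIC from -0.23 to 0.0028. The cause was not tested. With the filter at a mean of 1 FPKM, DUSP5 was not tested.

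The replicate numbers were used as a replicate block on the pairs 1 and 2. The deviations of same-numbered libraries correlated at -0.15 and -0.036 across genes. With 2 treated libraries, the same controls correlate with the other treated library at 0.15 and 0.036, the same sizes with opposite sign. These values therefore cannot show whether same-numbered libraries were paired, and the numbers may be shared names only. Replicate 3 exists only in si-SCR, so the differences with the block equal those without si-SCR replicate 3. With the replicate block 3122 of all genes and 3 of the 10 ERK output genes were called, SPRED1 was at 0.020, and FGFR4 was called (-0.37, limma adjusted p = 0.0165, against 0.00354 to 0.366 over all alternatives). Of the 36 genes of the lists that were called and followed through the alternatives, 27 lost their call with the fold threshold, 22 lost their call without si-circVAMP3 replicate 1, 22 without its replicate 2, and 9, 14 and 4 without si-SCR replicates 1, 2 and 3. Among the other alternatives, 6 lost their call with the replicate block, 5 without a trend in the variance, 2 with no filter, 2 with quantile normalization and 1 with scaling to the same median.

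Of the ERK output genes, DUSP5 is the most limited by depth, with 40 to 67 reads per library. FOSL1, from the list of other genes induced by ERK activity, was called on 15 to 80 reads per library. With 2 treated libraries, a gene that missed the threshold is not shown to be unchanged.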
